A study of Mus musculus with 18 samples.

Results

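The primitive streak transcription factors described here are 9 genes, T, Eomes, Mixl1, Gsc, Lhx1, Mesp1, Mesp2, Msgn1 and Tbx6, taken by symbol from the 20703 genes of an RNA-seq table of mouse E14 embryonic stem cells (mESCs). All 9 symbols occurred once. The cells were wild type (WT) or one of 2 clonal Nsd1-KO lines, KO-1 and KO-2, in which exon 5 of Nsd1, a gene for a histone H3 lysine 36 methyltransferase, had been deleted on both alleles with Cas9. The clones were derived from E14 cells whose Nsd1 alleles carried a 3×Flag tag, and the labels do not say whether the WT cells of these libraries carried it. RNA was sequenced at day 0, in cells kept with LIF on fibroblast feeders, and at day 2 and day 4 after LIF and feeders were withdrawn and the cells were grown as a monolayer on gelatin. Each line had 2 biological replicates per day, which made 18 libraries of 9309874 to 23921193 exon counts, with a median of 15721348. Each KO line is 1 clone, so the tests below set 2 clones against 1 WT line, and the labels do not say whether the replicates were separate cultures through the whole time course.

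The primitive streak is the region of the gastrulating embryo where epiblast cells lose their epithelial form and become mesoderm and definitive endoderm. WNT and NODAL signals, helped by BMP and FGF ligands, switch on the T-box and homeobox factors T, Eomes and Mixl1 there. Gsc and Lhx1 mark the anterior streak, while the bHLH factors Mesp1, Mesp2 and Msgn1 and the T-box factor Tbx6 act in the mesoderm that leaves it. Cultured mESCs that exit pluripotency can pass through a state with the same genes.

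Nsd1 RNA was lower in the clones. Nsd1 had 2111 to 3660 normalized counts in the 6 WT libraries and 575 to 1103 in the KO libraries, so that no KO library reached the lowest WT library at any day. A normalized count is the exon count of a library divided by its size factor, a scale that removes depth but not gene length. At day 0 the 10 pluripotency markers summed to 70661 and 70948 normalized counts in WT and to 74460 to 79279 in the KO libraries. High sums in all lines are what the mESC label would have. Pou5f1, Nanog, Tbx3 and Prdm14 had lower means in KO than in WT, and the other markers of the list higher ones. Pou5f1 had 9175 in WT and 6843 in KO, and Nanog 7968 and 7349.

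In WT, day 4 was the day of the streak factors. Of the 9 genes, 8 rose from day 0 to day 4 (limma on the deposited log2 values, adjusted p under 0.01 and a log2 change over 0.58), against 7.68% of all genes called higher. The median change of the 9 genes was 2.36 on the deposited log2 scale, beside -0.01 over all genes. That scale is a variance stabilizing transformation (VST), which flattens differences between low counts and so understates the change of a gene that starts near 0. The fold limit is therefore stricter here for low genes than it would be on counts, and a gene said to miss it may differ several-fold in normalized counts. Mesp2 passed the p-value only, with 0.41 ± 0.08 (SE, adjusted p = 0.000133). In limma-voom on the counts recovered from the VST values all 9 genes rose, against 17.1% of all genes. From day 0 to day 2, 0 of the 9 genes were called higher in WT, against 2.66% of all genes, and limma-voom also called 0. At an unadjusted p under 0.05, however, 3 were higher and 1 lower (Mesp2). In limma, 1 gene had an adjusted p under 0.01 and missed only the fold limit. A share of all genes beside a test count is here and below that of called genes. None is given for counts at an unadjusted p.

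Between genes, levels can be compared only per length. In WT at day 4, T was the most abundant with 7019 ± 118 normalized counts per kb of exon (SD, n = 2), followed by Mixl1 with 2977 ± 61.3. Msgn1 had 1783 ± 179 and Eomes 1357 ± 53.2 normalized counts per kb. Lhx1 stood at 556 ± 40.9 and Mesp1 at 477 ± 44.5, and their gap was smaller than the sum of their SDs. Gsc had 225 ± 19 normalized counts per kb. The lowest were Mesp2 with 79.7 ± 13.1 and Tbx6 with 63.9 ± 0.316, so T exceeded Tbx6 by more than 2 orders of magnitude. Exon lengths are those of GENCODE M21, and another annotation would move each gene's value by a constant.

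At day 4 the streak factors were lower in the Nsd1-KO clones, with Mesp2 in KO-2 the least reduced, by 7.13-fold in its mean normalized counts. On the VST scale 8 of the 9 genes were lower in KO than in WT, against 3.91% of all genes called lower, with a median difference of -2.36 over the 9 genes and 0.00 over all genes. The ninth, Tbx6, differed by -0.57 ± 0.05 (SE, adjusted p = 3.31e-09), just short of the fold limit, and was called in limma-voom, where all 9 were lower (13% of all genes). At day 4 every KO library was under the lower of the WT pair for all 9 genes, an arrangement that 25.9% of all genes showed. These are bulk libraries, in which fewer streak-like cells and less RNA per cell cannot be told apart. The comparison shares its WT day 4 libraries with the WT time course above, so the sizes of the WT rise and of the KO difference are not independent.

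**Figure D1:**
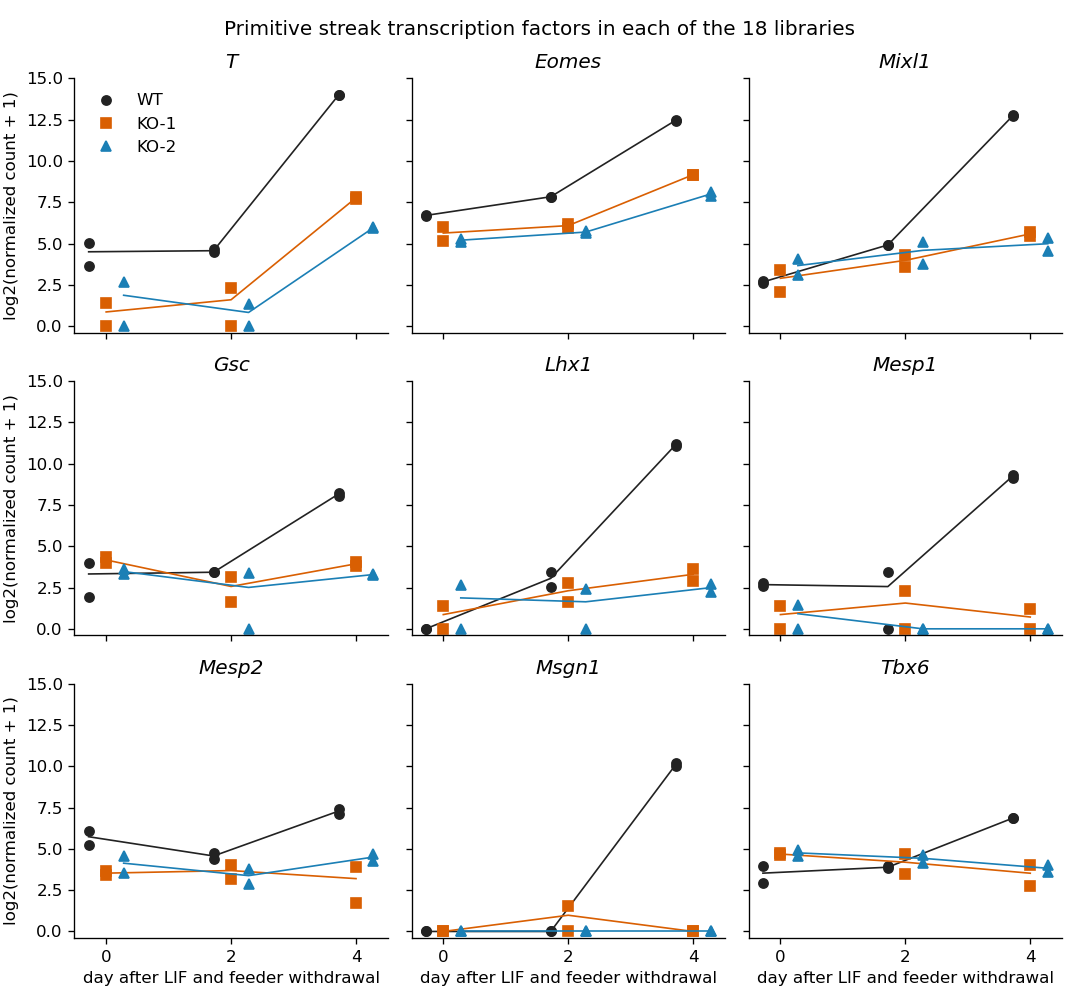
Normalized counts (log2 of the count plus 1, y axis) of the 9 genes by day after LIF and feeder withdrawal (x axis), with 1 point per library and lines through the mean of each line's 2 libraries. At day 4 both WT libraries (black) lie above all 4 KO libraries in every panel, and the KO lines end highest for Eomes (232 to 576 normalized counts) and T (60.2 to 226).

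T (Brachyury), the T-box factor that mesoderm formation needs, showed the widest swing on the VST scale. The WT libraries held 11.7 and 31.7 normalized counts of it at day 0, 24.4 and 21.1 at day 2, and 16441 and 16055 at day 4. KO-1 had 0 and 1.64 at day 0, 0 and 4.07 at day 2 and 210 and 226 at day 4. KO-2 had 5.32 and 0 at day 0, 1.56 and 0 at day 2 and 60.2 and 62.9 at day 4. Every KO library was thus below every WT library of its day, already before the induction, and at day 4 the KO-1 libraries stood above the KO-2 libraries. The day 4 means were 74.7-fold lower in KO-1 than in WT and 264-fold lower in KO-2 (VST difference of both clones from WT -4.80 ± 0.12, SE, adjusted p = 1.27e-17). At day 0 and day 2 the VST differences of -0.29 ± 0.12 and -0.31 ± 0.12 did not pass, with adjusted p = 0.0737 and 0.0359, and rest on 36 and 28 WT reads.

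Eomes, a T-box factor of the early streak and of definitive endoderm, had reads in every library, before induction too. WT libraries had 107 and 99.3 normalized counts at day 0, 228 and 227 at day 2 and 5793 and 5481 at day 4. In KO-1 the values were 35.3 and 62.2 at day 0, 73.1 and 61 at day 2 and 576 and 574 at day 4, and in KO-2 they were 38.2 and 33.7, 49.2 and 52.7, and 232 and 279. The KO libraries lay below WT at all 3 days, and WT had already more than doubled its mean by day 2, a step that did not pass the test (0.37 ± 0.14, adjusted p = 0.04). At day 4 Eomes was 9.81-fold lower in KO-1 and 22.1-fold lower in KO-2 (VST -2.74 ± 0.12, SE, adjusted p = 1.77e-13). At day 2 the VST difference of -0.56 ± 0.12 had an adjusted p of 0.000716 and missed the fold limit, which it passed without replicate 1 of KO-1 at day 2 (-0.59) and in limma-voom. An antisense gene, Gm33460, shares 2.84% of the Eomes exon bases, and the libraries are not stranded.

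Mixl1, a homeobox factor of mesendoderm, was close to absent in every line at day 0. WT had 5.03 and 5.76 normalized counts at day 0, 29.3 and 29.2 at day 2 and 6928 and 6730 at day 4. At day 0 the KO libraries (3.27 to 16) and at day 2 (11.2 to 33.7) overlapped WT. At day 4 KO-1 had 42.9 and 51.3 and KO-2 had 22.4 and 39.2 normalized counts, which is 145-fold and 222-fold below WT (VST -4.02 ± 0.06, SE, adjusted p = 1.27e-20). The KO and WT libraries of this gene thus separated only at day 4.

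The anterior streak factors were lower in KO at day 4 as well. Gsc, the homeobox factor of the organizer, reached 268 and 302 normalized counts in the WT libraries of day 4, against 15.8 and 12.8 in KO-1 and 8.4 and 9.12 in KO-2. Its day 0 levels were of the same order in all lines, with 15.1 and 2.88 in WT and 8.87 to 19.3 in the KO libraries. At day 2 Gsc had 9.78 and 9.73 in WT and 0 to 9.36 in KO, all below WT, from at most 12 reads a library. Lhx1, a LIM homeobox factor, was at 0 in both WT libraries at day 0, had 4.89 and 9.73 at day 2 and reached 2381 and 2146 at day 4. The day 4 values were 11.3 and 6.41 in KO-1 and 5.6 and 3.65 in KO-2, from 32 reads over the 4 libraries. The mean was therefore 24.7-fold lower in KO for Gsc (VST -1.03 ± 0.06, adjusted p = 1.78e-11) and 336-fold lower for Lhx1 (VST -2.93 ± 0.06, adjusted p = 5.69e-19).

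Among the mesodermal factors Msgn1, a bHLH factor of presomitic mesoderm, went from no reads to a high level within the last step. It had 0 reads in both WT libraries at day 0 and at day 2 and 1015 and 1171 normalized counts at day 4. All 4 KO libraries had 0 reads at day 4, and 2 reads in 1 KO-1 library at day 2 were the only ones in any KO library. Against a floor of 3 counts per library, the KO mean at day 4 was at least 431-fold lower, if single counts are independent. Of all counts between 1 and 10, however, 76% were even, and the low counts of Msgn1 and Mesp1 all were, so low counts may not be independent, the fold bound may then be too high and the counting interval of Mesp1 too narrow. Mesp1, the bHLH factor of the earliest cardiac mesoderm, reached 568 and 648 normalized counts in the WT libraries of day 4. KO-1 had 0 and 1.28, and both KO-2 libraries had 0, so that 2 reads stood against 1590 in WT. Scaled by the summed size factors of their libraries, these reads gave a ratio of 1534, unlike the ratios of means used for other genes. Its exact 95% interval was 424 to 12675 and takes counts as independent.

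Mesp2 and Tbx6, which pattern the segmenting mesoderm, had the smallest WT rises, 2.97-fold and 10.9-fold in mean normalized counts from day 0 to day 4. Mesp2 in WT began with 67.1 and 37.4 normalized counts, then had 19.6 and 25.9 at day 2 and 137 and 173 at day 4. The KO libraries began with 9.64 to 22.4, had 6.32 to 15.6 at day 2 and ended with 2.26 and 14.1 in KO-1 and 25.2 and 18.2 in KO-2. Mesp2 was below WT at each day without overlap, and its day 0 difference of -0.28 ± 0.07 (SE, adjusted p = 0.00281) missed only the fold limit. Mesp1 and Mesp2 lie head to head on chromosome 7, with 16.9 kb between their starts in GRCm38, and the WT libraries of day 0 held 106 reads of Mesp2 and 10 of Mesp1. Tbx6 went the other way before induction. The undifferentiated WT libraries had 6.71 and 14.4 normalized counts and those of KO 23.1 to 29, all above WT as were 23.1% of all genes, with a difference of 0.15 ± 0.05 (SE, adjusted p = 0.0248) that did not pass. At day 4 WT had 116 and 115, and KO had 5.64 and 15.4 in KO-1 and 15.4 and 10.9 in KO-2.

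Before induction, then, few of these genes differed past the thresholds. At day 0, 0 of 9 were called lower in KO (0.879% of all genes were), with 4 lower and 1 higher (Tbx6) at an unadjusted p under 0.05, and limma-voom called 1, Mesp2 (6.86% of all genes). At day 2, 0 of 9 were called lower (2.37% of all genes), with 2 lower at an unadjusted p under 0.05, and limma-voom called 1, Eomes (13.6% of all genes). The shares in brackets are of called genes and are no background for the counts at an unadjusted p. All KO libraries were under the lower WT library for 4 of 9 genes at day 0 and for 4 at day 2, beside 24.3% and 31.4% of all genes. The day 0 cells were grown on feeders, and the 9 measured fibroblast markers summed to 3885 and 3666 normalized counts in WT, 5981 and 5964 in KO-1 and 6766 and 6864 in KO-2, with Col1a1 the most abundant and Lum at 0 in every day 0 library. Of these 9 markers, 4 were higher and 1 lower in KO at day 0, beside 1.73% and 0.879% of all genes. Their part in the day 0 differences was not tested.

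**Figure D2:**
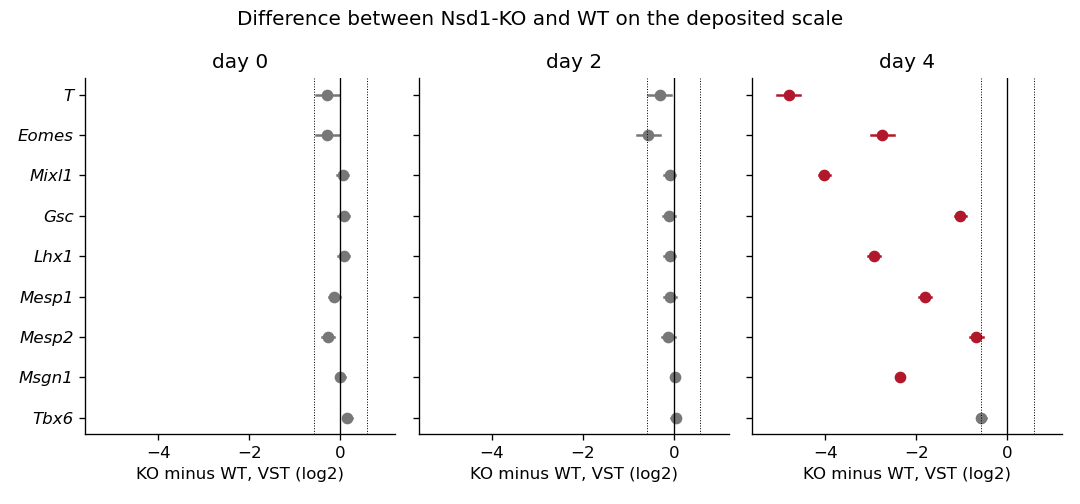
Difference between the 4 KO and the 2 WT libraries of each day (x axis, VST units on a log2 scale) for each gene (y axis), with 95% confidence intervals from limma as lines, the fold limits dotted and called genes in red. Called genes appear only at day 4, where T has the largest difference (-4.80) and Tbx6 ends just inside the limit (-0.57).

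The difference between KO and WT was itself set against day 0. The KO effect was more negative at day 4 than at day 0 for 8 of the 9 genes, against 4.13% of all genes called lower in that contrast, from -4.52 ± 0.17 for T to -0.72 ± 0.07 for Tbx6. Mesp2, already lower in KO at day 0, had -0.40 ± 0.09 (adjusted p = 0.00228) and missed the fold limit. In limma-voom 7 of the 9 were called lower in this contrast, against 8.01% of all genes. For T, limma-voom gave an adjusted p of 0.0905, and day 0 rests on 36 WT and 8 KO reads.

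The clones retained at most a small part of the induction in normalized counts, and for some of the genes none. Residual induction is defined here as the rise in mean normalized counts from day 0 to day 4 in a clone, in percent of the rise in WT, which both clones share as their scale. Eomes kept the most in KO-1, with 9.51% ± 0.033 (SD over the 2 day 4 libraries), followed by T with 1.34% ± 0.069, Mixl1 with 0.595% ± 0.087 and Lhx1 with 0.355% ± 0.15. Msgn1 came next at 0%, where 3 counts would be 0.243%, and Mesp1 had -0.0295% ± 0.15, and the libraries of these 2 genes overlapped. Gsc had -0.98% ± 0.76 and Mesp2 -2.31% ± 8.2, again without separation from each other. Without 1 library Gsc ran from -1.8% to -0.157% and Mesp1 from -0.165% to 0.106%. Tbx6 was last with -13.6% ± 6.6, a level at day 4 below that of day 0.

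In KO-2 the order of Eomes, T, Mixl1, Lhx1, Msgn1, Mesp1, Gsc and Tbx6 was the same with all libraries in, at lower values for the first 4. Eomes kept 3.97% ± 0.61, T 0.363% ± 0.012, Mixl1 0.28% ± 0.17 and Lhx1 0.0867% ± 0.061, where 3 counts would be 0.107%. Without 1 library Lhx1 ran from -0.0309% to 0.204%, Mesp1 from -0.295% to 0% and Gsc from -0.892% to -0.0407%. The order of Lhx1, Msgn1, Mesp1 and Gsc in KO-2 thus depends on single libraries. The exception was Mesp2, which was first with 5.04% ± 4.8 but overlapped Eomes between its libraries, and T and Mixl1 overlapped too. The WT rise of Mesp2 is only 103 normalized counts, so that a few reads move its rank. Its value in KO-2 was -0.701% without replicate 1 of KO-2 at day 0 and 10.8% without replicate 2, and at day 4 it was 1.65% without replicate 1 and 8.43% without replicate 2. On the VST scale, which gives more weight to low counts, the shares were 36% for Eomes and 20.5% for T in KO-1 and 21.9% and 9.92% in KO-2.

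**Figure D3:**
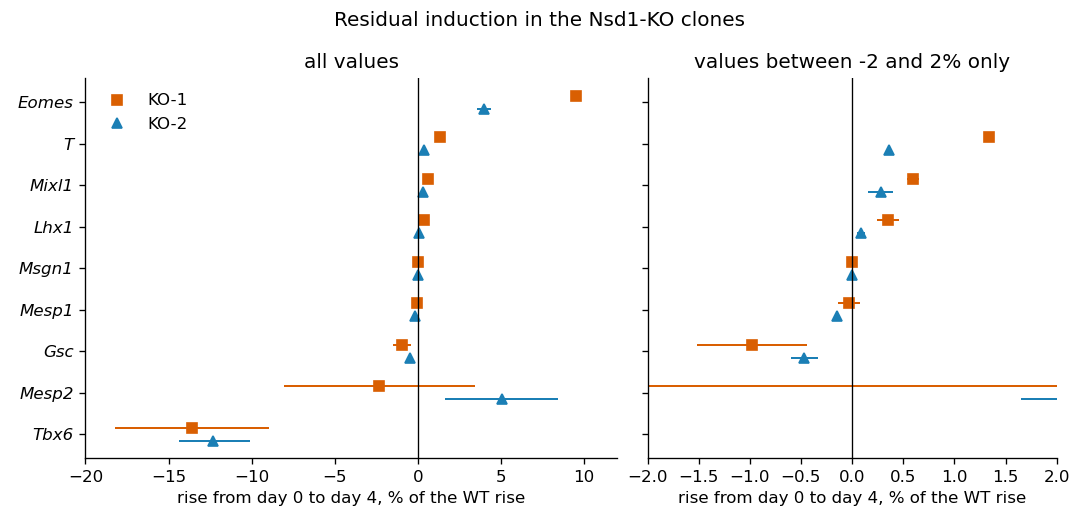
Residual induction (x axis, rise from day 0 to day 4 in percent of the WT rise) of each gene (y axis) in KO-1 and KO-2, as the mean of 2 day 4 libraries with a line from the lower to the higher library, over the full range at left and between -2 and 2% at right. Eomes and T lead in KO-1, Tbx6 is below 0 in both clones, and Mesp2 has the widest lines.

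Both T and Eomes rose from day 0 to day 4 in KO with the clones pooled (T 0.81 ± 0.10, Eomes 1.00 ± 0.10 on the VST scale, adjusted p = 5.84e-07 and 3.86e-08), which makes 2 of 9, against 3.44% of all genes. In limma-voom Mixl1 made it 3 of 9, against 12.7% of all genes. In KO-1 alone both rose (3.51% of all genes did), T by 1.09 ± 0.07 and Eomes by 1.24 ± 0.06. In KO-2 only Eomes passed (3.46% of all genes), with 0.76 ± 0.06, while T had 0.53 ± 0.07 (adjusted p = 3.19e-06, 23.1-fold in mean normalized counts from 6 reads at day 0) and missed the fold limit, which it passed without replicate 1 of KO-2 at day 0 (0.62). Tbx6 had -0.13 ± 0.04 with the clones pooled (adjusted p = 0.00828), a value under the fold limit.

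Between the clones at day 4, 0 of 9 genes passed both thresholds, beside 0.251% of all genes in either direction, with 3 at an unadjusted p under 0.05. T was higher in KO-1 than in KO-2 by 0.52 ± 0.07 (SE, 95% interval 0.38 to 0.67, adjusted p = 0.000137) and Eomes by 0.56 ± 0.06 (0.44 to 0.68, adjusted p = 8.29e-06). Both values missed the fold limit alone, Eomes passed it without replicate 2 of KO-2 at day 4 (0.61), and limma-voom called both, against 2.23% of all genes. The difference between clones in the change from day 0 to day 4 was 0.57 ± 0.10 for T and 0.49 ± 0.08 for Eomes, with adjusted p = 0.00964 and 0.00851. Both missed the fold limit, so 0 of 9 genes were called in this contrast, with 2 at an unadjusted p under 0.05, and limma-voom also called 0 (0.0435% and 0.0483% of all genes). For Mixl1 the interval of the day 4 difference was -0.02 to 0.24, for Tbx6 -0.16 to 0.08.

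Set against other induced genes, the residual induction of the streak factors was low. The 1589 genes called higher in WT at day 4 than at day 0, which include 8 of the 9, had a median residual induction of 35% in KO-1 (quartiles 10.4% and 67%) and of 32.3% in KO-2 (8.19% and 65.3%). All 9 streak factors were under 10% in both clones, as were 24.5% and 27.4% of the 1589 genes. The factors' medians were 0% and 0.0867%. Below 0 were 4 of the 9 in KO-1 and 3 in KO-2, beside 11.5% and 13.2% of the 1589 genes.

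The promoters of 4 members are shown for reference, those of Eomes and T, which rose in KO with the clones pooled, of Msgn1, which had no read in any KO library at day 4, and of Tbx6, which had the lowest residual induction in both clones. RefSeq (GRCm38.p6) had an entry for 8 of the 9 genes, all but Mixl1. Searched on both strands in the 250 bases before the start were the TCF/LEF motif of WNT signalling (CTTTGAT or CTTTGAA), the T-box motif GGTGTGA, the Foxh1 motif TGTGNATT and the TATA box TATAAA. The TCF/LEF letters were found in 3 of 8 promoters, those of T, Mesp1 and Msgn1, and in 7.48% of all promoters. TATAAA was in those of Gsc and Tbx6 and in 12.4% of all, and the T-box and Foxh1 letters, present in 3.33% and 3.18% of all promoters, were in 0 of the 8. The whole Gsc window and both Mesp1 matches lie in annotated exons, and the shares of all promoters were likewise counted with exon bases included. A match describes letters and not a bound site. The sequences run 5′ to 3′ on the gene's strand and end at the RefSeq start or, for Msgn1, before the first annotated exon base, with matches in capitals. T lies at chr17:8434173-8434422 (plus strand), Eomes at chr9:118477939-118478188 (plus), Msgn1 at chr12:11208973-11209198 (minus) and Tbx6 at chr7:126781233-126781482 (plus), all upstream of the annotated exons.
T: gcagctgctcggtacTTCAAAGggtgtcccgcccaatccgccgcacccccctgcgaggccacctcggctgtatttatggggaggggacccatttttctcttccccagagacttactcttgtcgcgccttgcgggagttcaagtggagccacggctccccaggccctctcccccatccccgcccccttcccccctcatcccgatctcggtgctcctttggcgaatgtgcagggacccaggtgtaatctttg
Eomes: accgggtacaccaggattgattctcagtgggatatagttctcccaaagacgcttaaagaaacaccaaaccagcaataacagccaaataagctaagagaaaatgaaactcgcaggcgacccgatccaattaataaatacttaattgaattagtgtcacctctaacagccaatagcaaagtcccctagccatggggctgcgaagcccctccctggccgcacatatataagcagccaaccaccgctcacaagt
Msgn1: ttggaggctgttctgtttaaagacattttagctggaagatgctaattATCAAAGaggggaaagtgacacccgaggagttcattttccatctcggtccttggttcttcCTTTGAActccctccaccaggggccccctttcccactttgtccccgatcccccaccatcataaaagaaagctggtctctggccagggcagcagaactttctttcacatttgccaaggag
Tbx6: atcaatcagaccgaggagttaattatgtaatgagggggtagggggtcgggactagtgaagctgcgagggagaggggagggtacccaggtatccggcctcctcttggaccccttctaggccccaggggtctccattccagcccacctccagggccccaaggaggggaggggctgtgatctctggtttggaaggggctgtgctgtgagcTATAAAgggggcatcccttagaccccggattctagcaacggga
The TCF/LEF match of T lies 235 bases before its start, and those of Msgn1 lie 203 and 143 bases before its start. Eomes held none of the 4 motifs in its window. A relation between motif matches and residual induction was not tested.

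The signals that induce the streak did not move as 1 block. Of 12 ligands and co-receptors measured, 2 were higher and 8 lower in KO at day 4, beside 3.67% and 3.91% of all genes, and their median difference was -0.84. These shares of all genes are the background of every day 4 list count that follows. Lower were Wnt5a (-2.49 ± 0.05), a non-canonical WNT ligand, Bmp4 (-1.44 ± 0.07) and Fgf8 (-1.26 ± 0.06), while the TGF-beta family ligand Gdf3 was higher (1.34 ± 0.07). The other values of this list were chosen after they were seen. Wnt3 had a mean of 2102 normalized counts in WT, 924 in KO-1 and 955 in KO-2 at day 4, a residual induction of 43.2% and 44.1%. Wnt8a had 327, 573 and 430, and Nodal 1858, 2330 and 2253, with VST differences of 0.29 and 0.24 that missed the fold limit. Wnt3a, Fgf3 and Wnt5a, by contrast, had a residual induction of -5.19%, -9.93% and -0.807% in KO-1 and of -2.92%, -10.5% and -0.487% in KO-2, none of their rise. Fgf8 kept 27.1% and 28.1% and Fgf5 58.5% and 21.7%. The 7 genes of this list that rose in WT had a median residual induction of 27.1% in KO-1 and 21.7% in KO-2. At day 2, 1 of the 12 was higher in KO, Nodal (0.73 ± 0.06), and 1 lower, Fgf5 (-1.97 ± 0.18). Of all genes, 4.01% were higher and 2.37% lower at day 2.

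Of 18 receptors and signal transducers, 2 were higher and 4 lower in KO at day 4, with a median of -0.15. The lower ones included the WNT effectors Tcf7 (-0.96 ± 0.08) and Lef1 (-0.83 ± 0.08) and the activin receptor Acvr1b (-0.72 ± 0.06), and Tcf7l1, a repressor of WNT targets in mESCs, was higher (0.76 ± 0.07). Of the 18, 1 was already lower at day 0, Lef1 (-0.72 ± 0.08), and 0 higher, beside 0.879% and 1.73% of all genes. At day 2, 2 were lower, Lef1 (-0.83 ± 0.08) and Tcf7 (-0.84 ± 0.08), and 2 higher, beside 2.37% and 4.01% of all genes. The 8 transducers and receptors that rose in WT kept a median of 50.2% and 39% of their rise. Of 10 inhibitors, 3 were higher and 2 lower. Lefty1, an antagonist of NODAL, was higher by 2.61 ± 0.16, with 648 normalized counts in WT and 5197 and 8810 in KO-1 and KO-2, and so was the WNT antagonist Sfrp2 (1.56 ± 0.06). Already at day 0, 3 of the 10 were higher in KO and 0 lower, beside 1.73% and 0.879% of all genes. These were Lefty1 (1.55 ± 0.16), Lefty2 (2.08 ± 0.13) and Sfrp2 (0.64 ± 0.06). At day 4 the BMP antagonist Nog (-1.28 ± 0.07) and the WNT antagonist Frzb (-1.20 ± 0.04) were lower. The 5 inhibitors that rose in WT had a median residual induction of 13.2% and 13.1%. They ran from -92.46% (Lefty2) to 65.06% (Axin2) in KO-1 and from -66.65% to 52.99% in KO-2, for the same 2 genes.

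Genes of the posterior streak and of the epithelial-mesenchymal transition were mostly lower. Of 12 measured, 8 were lower and 1 higher in KO at day 4, with a median of -1.14. Evx1, a homeobox gene of the posterior streak, differed by -2.66 ± 0.05, the zinc finger factors Sp5 and Sp8 by -1.79 ± 0.09 and -1.48 ± 0.10, and Snai1, a repressor of E-cadherin, by -1.61 ± 0.06. The higher gene was Cdx4, with 8.01 normalized counts in WT and 285 and 453 in KO-1 and KO-2 (1.24 ± 0.10). The 8 of this list that rose in WT kept from 0.993% (Evx1) to 70.4% (Zeb2) of their rise in KO-1 and from 0.848% to 51.2% in KO-2, with medians of 17.5% and 14.6%.

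Genes of the mesoderm and endoderm that the streak gives rise to were lower in part. Of 16 nascent mesoderm and presomitic genes, 5 were lower and 2 higher in KO at day 4, with a median of -0.34. The apelin receptor Aplnr (-2.83 ± 0.06), the WNT potentiator Rspo3 (-1.73 ± 0.06) and the growth factor receptor Pdgfra (-1.51 ± 0.05) were lower, and the protocadherin Pcdh19 was higher (1.76 ± 0.12). Of 10 anterior streak and endoderm genes, 0 were higher and 3 lower (Gata4 -1.49 ± 0.06, Gata6 -1.48 ± 0.06, Cxcr4 -1.07 ± 0.06), with a median of -0.11. In limma-voom 1 was higher and 5 were lower, beside 10.9% and 13% of all genes. The endoderm markers Foxa2 and Sox17 had at most 30 and 34 reads in the WT libraries of day 4, and at most 156 and 12 in the KO libraries. Foxa2 had a higher mean in KO, with 15.51 normalized counts in WT, 37.42 in KO-1 and 81.05 in KO-2. Sox17 had a lower one, with 20.8, 3.845 and 2.524. Low residual induction was not particular to the streak factors. Among the genes that rose in WT, the median residual induction was 2.38% in KO-1 and 4.19% in KO-2 over 7 nascent mesoderm genes, with Dll3 the highest (28.6% and 36.8%), and -1.61% and 0.0778% over the 3 anterior and endoderm genes, beside 0.177% and 0.0434% over the 8 streak factors that rose.

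**Figure D4:**
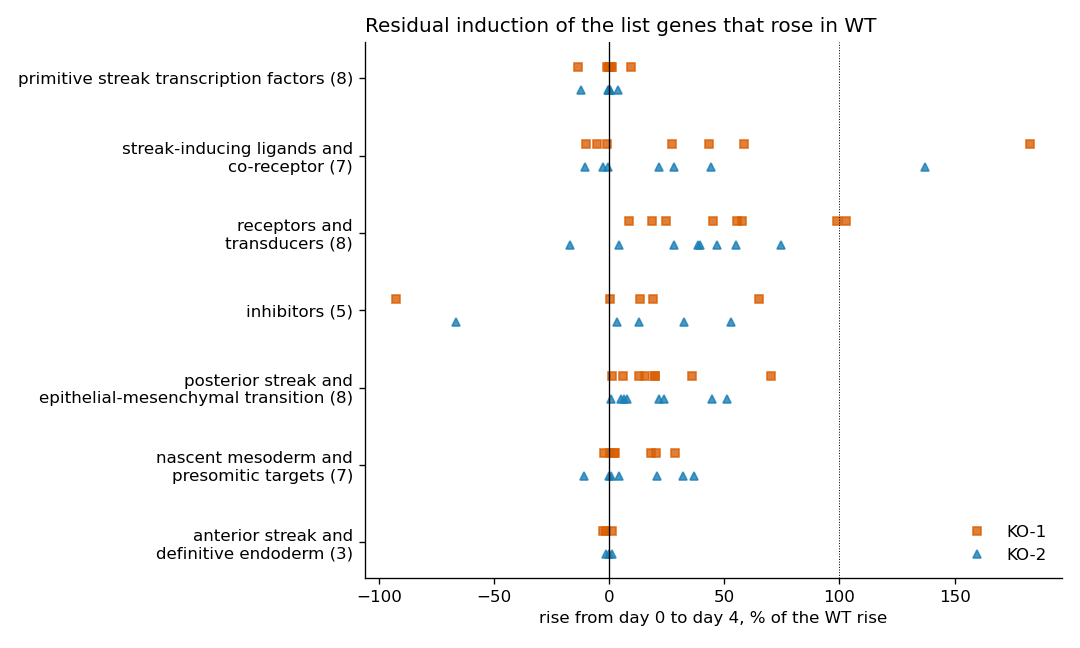
Residual induction (x axis, rise from day 0 to day 4 in percent of the WT rise) of the genes of each list (y axis) that rose in WT, with their number in brackets, in KO-1 and KO-2. In KO-1 the streak factors lie between -13.6% (Tbx6) and 9.51% (Eomes) and the anterior genes between -2.7% and 1.23%. Ligands reach 183% (Wnt8a), transducers 103% and inhibitors fall to -92.46% (Lefty2) in that clone.

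Markers of other cell states differed too, some of them already at day 0. The pluripotency marker Dppa3 (1.28 ± 0.11) and the neuroectoderm markers Tubb3 (1.08 ± 0.08) and Nes (0.68 ± 0.14) were then higher in KO, 1 of 10 and 2 of 7 markers beside 1.73% of all genes, and 0 of either list were lower, whereas limma-voom also called Tbx3 and Prdm14 lower. Of the 10 pluripotency markers 7 were higher and 1 lower (Pou5f1) in KO at day 2, beside 4.01% and 2.37% of all genes. Their median difference was 1.22. They summed to 14037 and 13247 normalized counts in WT, 25386 and 24953 in KO-1 and 22177 and 22150 in KO-2. At day 4, 7 of these markers were higher and 0 lower, with a median of 1.08. In limma-voom 8 were higher and 2 lower (Pou5f1 and Tbx3), beside 10.9% and 13% of all genes. Pou5f1 then had a mean of 5417 in WT and 3537 in KO, and Tbx3 628.5 and 319.8. The markers summed to 9243 and 9138 in WT, 19698 and 19806 in KO-1 and 17016 and 16402 in KO-2. Pou5f1 was the most abundant in WT and Sox2 in KO, and Dppa3 was at 0 in 1 WT library. The 7 neuroectoderm markers summed to 6303 and 6007 in WT, 4782 and 5011 in KO-1 and 4378 and 4263 in KO-2. Of these, 2 were higher (Sox1, Tubb3) and 1 was lower (Nes, the most abundant in WT), and Sox1, Pax6 or Olig3 were at 0 in WT libraries. Of 8 primitive endoderm markers 2 were lower (Gata4 and Gata6), and the list summed to 2239 and 2188 in WT, where Gata4 was the most abundant, and 505 to 699 in KO, with Afp at 0 in 1 WT and 2 KO libraries. Of 8 trophoblast markers, which include Eomes itself, 4 were lower and 1 higher. The defining trophoblast gene Elf5 had 4 and 0 reads in WT and 0 to 2 in KO at day 4, and the 7 genes other than Eomes summed to 2218 and 2226 in WT, with Cdx2 the most abundant, and to 1156 to 1331 in KO. Of the 9 fibroblast markers 2 were lower in KO at day 4 and 0 higher (2897 and 2749 in WT, 786 to 1459 in KO, Col1a1 the most abundant and Dcn at 0 in 1 KO library). The part of these markers in the day 4 differences was not tested.

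By likeness of pattern, the 5 genes closest to the mean of the 9 standardized profiles over the 18 libraries, among 14529 others with a mean of at least 10 normalized counts, were Sprr2a3, Cyp26a1, Aplnr, Evx1 and Pdgfra, with Pearson's r from 0.996 to 0.992. These libraries share lines and days, so the values describe a pattern set mainly by WT at day 4. Cyp26a1, which degrades retinoic acid, had a WT mean of 3489 normalized counts at day 4 against 21.5 and 33.2 in KO-1 and KO-2, and Sprr2a3 had 870 against 0 and 0. Against the mean of the other 8, Msgn1 (r = 0.994) and Mixl1 (0.992) were the most typical of the factors and Mesp2 (0.864), Tbx6 (0.900) and Eomes (0.935) the least.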

How the data were processed

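RNA-seq of 18 libraries (WT, KO-1 and KO-2 at days 0, 2 and 4, 2 replicates each) was used. Polyadenylated RNA was sequenced as unstranded paired reads. Per the submitters' processing notes and methods, reads were trimmed with Trim Galore 0.6.7, aligned to mm39 with STAR 2.7.11a and counted on exons, without duplicates, with featureCounts 2.0.6. The authors deposited log2 values from the variance stabilizing transformation of DESeq2 1.42.0, for genes with a mean count of at least 1. Inverting this transformation gave whole counts for 100% of values (within 0.05), of which 76% between 1 and 10 are even for a reason not found here.

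Differences were fitted on the deposited log2 values over all 20703 genes with limma 3.58.1 (trended prior) in R 4.3.3, with 6 groups of genotype and day, or 9 of line and day between clones. Genes were called at a Benjamini-Hochberg adjusted p under 0.01 and a log2 change over 0.58. The study set these limits on fold changes of counts, and on VST differences the same fold limit is stricter for low genes. limma-voom on the recovered counts with the recovered size factors is the count-based alternative and called 4957 genes between KO and WT at day 4, where limma on the log2 values called 1569. Same-numbered libraries deviated together at day 2 (r of replicate differences 0.367 to 0.475 over 3 pairs of lines). At day 0 they did not in any pair (r -0.2329 to 0.0000). At day 4 they did between WT and KO-1 only (r 0.3493), with -0.2561 between WT and KO-2 and -0.4979 between the clones. If single counts are independent, replicate pairs differed by more than counting noise (chi-square per gene 2.23 to 15). It was highest in KO-1, with 14.77 at day 0 and 15.04 at day 4. Intervals and floors (3 counts) cover counting error only and take counts as independent, which the even counts put in doubt.

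The members and lists were chosen with earlier results of these data known. All 9 members are named, and of each other list up to 4 called genes with the largest day 4 difference and the 5 genes most like the members, other names being marked in the text or given as markers. Noto, Ripply2, Neurog2 and S100a4, also listed, were not measured. Sequences and exon lengths are from GRCm38, and no coordinates of mm39 were used.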

Additional observations from a re-analysis of the deposited data

Results flagged for a closer look

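In 25 sets of the 4 KO libraries of a day with any read of a gene, 5 had a library apart from the other 3 by Dixon's test. Chance flags about 1 in 20 sets of continuous values, a rate that does not apply to the 3 sets with reads in 1 library only, where the gap is the whole range whatever the count. Eomes had 62.2 normalized counts in KO-1 replicate 2 at day 0 (next 38.2), and Mesp2 had 22.4 in KO-2 replicate 2 at day 0 (next 11.5). Mesp1 had 3.9 in KO-1 replicate 1 at day 2 and 1.28 in KO-1 replicate 2 at day 4, and Msgn1 had 1.95 in KO-1 replicate 1 at day 2, each from at most 4 reads with 0 in the other 3 libraries.

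For 8 genes the interaction contrast of limma separated the KO effects of the first and the last day, against 4.13% of all genes called lower. On the VST scale it was more negative at day 4 by -4.52 for T, -4.07 for Mixl1, -3.00 for Lhx1, -2.46 for Eomes, -2.36 for Msgn1, -1.68 for Mesp1, -1.10 for Gsc and -0.72 for Tbx6. In limma-voom 7 of the 9 were called lower in this contrast, T not among them, against 8.01% of all genes. For all 9 genes the highest KO library of day 4 was under the lower WT library, as it was for 25.9% of all genes.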

How the results depend on the processing

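The counts of 8 genes lower in KO at day 4, 8 higher at day 4 in WT and 8 with a different KO effect stayed within 1.5 times under every alternative tried, and the fold changes at day 4 kept their sign. Counts near 0 moved. limma-voom gave 1 gene lower at day 0, 1 at day 2, 2 higher at day 4 in KO-2 and 2 different between clones. Of all genes it called 6.86%, 13.6%, 11.1% and 2.23% in the same order. log2(normalized count + 1) gave 2, 2, 2 and 1 in the same order, and 1 gene higher at day 2 in WT. KO-2 alone gave 1 lower at day 2 and 1 higher at day 4 in KO. An adjusted p under 0.05 with no fold limit gave 1 lower at day 0, 2 at day 2, 3 higher at day 2 in WT, 4 at day 4 in KO, 4 in KO-1, 3 in KO-2 and 2 different between clones. Of the alternatives, only limma-voom has a share of all genes beside its counts. The counts under every other alternative, fits without 1 library and the replicate block below included, lack a background. Tbx6 in WT (0.59) fell under the limit without WT replicate 1 at day 0 (0.54). Leaving out 1 library at a time gave 0 to 1 lower at day 2, 1 to 2 higher in KO-2 and 0 to 1 between clones. The median residual induction, 0% in KO-1 and 0.0867% in KO-2, ranged then from 0 to 0.247% and from 0 to 0.13%. As a level in percent of WT at day 4 it was 1.34% and 0.451%, and in KO-2 it was 2.5% as a ratio of VST differences. Apart from the scale and threshold named, the cause was not tested.

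The labels do not say what replicates of one number share. Of 36 pairs of groups, 13 had replicate differences that correlated above 0.1 (mean -0.0476, -0.613 to 0.635). With a replicate block, over all days or within each, 8 genes were lower at day 4 and 0 at day 2, where the numbers deviated together, and none of the 10 counts moved. In limma-voom the median gene moved by -0.14 at day 2. Depth limits genes near 0 reads, where a difference before day 4 was often not detectable.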
